A study of Mus musculus with 9 samples.

Results

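The genes described here are 10 heat shock and chaperone genes of the mouse trigeminal ganglion (TG), Hspa1a, Hspa1b, Hsph1, Dnajb1, Hspb1, Hspa8, Hsp90aa1, Hspa5, Hspd1 and Hspe1. They were chosen by name from the 21835 genes of the deposited mRNA table, not by a cutoff on their values. Earlier results of these data were known when the choice was made. All 10 were among the 16110 genes abundant enough to be tested. The level of a gene is the sum of FPKM (mapped fragments scaled to the length of the transcript and to the size of the library) over its transcripts, called the gene sum below. Total RNA of the TG, the ganglion that holds the cell bodies of the sensory neurons of the face, was sequenced after an injection into the temporomandibular joint (TMJ). All mice were wild-type C57BL/6 males, 8 weeks old. Under isoflurane they received 10 µl of saline (Saline replicates 1 to 3, labelled day 3) or 10 µl of complete Freund's adjuvant (CFA, 5 mg/ml), an oil emulsion with mycobacteria that inflames the joint. TG tissue was taken on day 3 (CFA3D replicates 1 to 3) or on day 6 (CFA6D replicates 4 to 6). Each library pooled unilateral TG punches of 3 mice, so n = 3 pools per group throughout, and p-values measure the spread between pools. No saline library was labelled day 6, so CFA and the time since injection cannot be told apart in the comparison of CFA6D with saline.

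Chaperones bind unfolded or newly made proteins and help them to fold, and each compartment of the cell has its own set. In the cytosol, HSP70 proteins work with J-domain cochaperones, which deliver clients and stimulate the ATPase, and with HSP110 proteins, which exchange the nucleotide. Under heat or proteotoxic stress, heat shock factor 1 (Hsf1) binds repeats of the unit nGAAn in promoters (heat shock elements) and raises the transcription of many of these genes. In the endoplasmic reticulum the unfolded protein response does so through another promoter element. Sensory neurons hold constitutive members of these families at high levels, and the small heat shock protein Hspb1 is known to rise in them after axonal injury.

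The promoters of the genes are shown first. Letters of a 2-unit heat shock element were found at 6 members, and those of a 3-unit element at 3 of these. Letters of an endoplasmic reticulum stress element were found at Hspa5. RefSeq sequence (GRCm38.p6) was matched by symbol for 8 of the 10 members and covers 250 bases before and 50 bases after each start site. Hspa8 and Hsp90aa1 had no entry. The letters searched on both strands were GAANNTTCNNGAA for a heat shock element of 3 units, GAANNTTC and TTCNNGAA for 2 units, which lie within the 3-unit letters, and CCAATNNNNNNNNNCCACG for the endoplasmic reticulum stress element. The 250 bases before the start site are printed 5′ to 3′ on the strand of the gene for 5 members, with the matches in capitals. The printed bases of Hspe1 lie at chr1:55087898-55088147 (plus strand), those of Hsph1 at chr5:149636316-149636565 (minus strand) and those of Hspb1 at chr5:135887669-135887918 (plus strand). Those of Hspa1b lie at chr17:34959239-34959488 (minus strand) and those of Hspa5 at chr2:34771840-34772089 (plus strand).
Hspe1: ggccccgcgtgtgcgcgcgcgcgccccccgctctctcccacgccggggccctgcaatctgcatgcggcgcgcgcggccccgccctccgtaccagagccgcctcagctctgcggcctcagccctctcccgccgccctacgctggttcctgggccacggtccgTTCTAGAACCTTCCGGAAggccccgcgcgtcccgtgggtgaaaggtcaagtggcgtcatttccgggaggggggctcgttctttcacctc
Hsph1: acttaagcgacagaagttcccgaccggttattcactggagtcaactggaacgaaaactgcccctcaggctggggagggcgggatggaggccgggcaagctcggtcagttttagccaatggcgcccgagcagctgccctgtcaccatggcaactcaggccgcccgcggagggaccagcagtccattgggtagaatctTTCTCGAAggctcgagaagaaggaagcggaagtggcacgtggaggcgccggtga
Hspb1: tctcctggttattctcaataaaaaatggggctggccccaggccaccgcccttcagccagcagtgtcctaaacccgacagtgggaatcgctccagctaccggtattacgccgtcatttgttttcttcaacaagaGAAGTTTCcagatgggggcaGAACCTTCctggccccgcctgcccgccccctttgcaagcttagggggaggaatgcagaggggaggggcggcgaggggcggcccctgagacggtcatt
Hspa1b: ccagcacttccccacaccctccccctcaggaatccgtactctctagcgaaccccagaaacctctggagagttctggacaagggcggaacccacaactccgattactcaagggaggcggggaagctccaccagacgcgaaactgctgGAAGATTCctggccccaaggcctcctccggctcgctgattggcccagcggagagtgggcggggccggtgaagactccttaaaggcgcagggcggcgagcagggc
Hspa5: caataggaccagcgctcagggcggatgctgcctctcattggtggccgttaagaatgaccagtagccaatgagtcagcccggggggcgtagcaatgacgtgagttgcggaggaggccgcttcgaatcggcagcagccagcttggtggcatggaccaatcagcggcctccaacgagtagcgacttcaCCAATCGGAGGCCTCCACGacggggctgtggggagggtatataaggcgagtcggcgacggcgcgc

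The 3-unit heat shock element was found at Hsph1, Hspd1 and Hspe1, and in 0.603% of 32851 RefSeq promoters of this length. At Hspe1 the letters TTCTAGAACCTTC began at base -89 and GAACCTTCCGGAA at base -84, counted from -1 as the base before the start site, so that 4 units overlapped. Hspd1 and Hspe1 are read away from each other, and their main transcripts start 108 bases apart. Before the more downstream of the RefSeq starts of Hspd1, the element was the same tract read on the opposite strand, where TTCCGGAAGGTTC began at base -144. At Hsph1 the 3-unit match TTCTGGAAAGTTC lay after the start site, at base 16 after it, and only a 2-unit match at -54 is within the printed bases. Hspb1 held 2-unit matches at -117 and -97, and Hspa1a and Hspa1b held GAAGATTC at -104. A 2-unit match of either order was found in 6 of the 8 members with a promoter and in 15.1% of all promoters. Members with more than 1 window counted if any window matched, whereas the share is per promoter. Neither window of Dnajb1 held any of these letters. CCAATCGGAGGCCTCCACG at base -65 of Hspa5 was the only match to the endoplasmic reticulum stress element among the members, and 0.119% of all promoters held one. A match is a description of the letters and not a sign of binding, and a missing match says only that the letters are not in the window.

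The 9 libraries held 30.0 to 42.2 M read pairs, as estimated from the steps of low FPKM values. This put about 331 to 955 read pairs on Hspa1a, the lowest member, and 28683 to 47914 on Hspa8, the highest. Pairwise correlations of log2 values between libraries were 0.943 to 0.986. CFA6D replicate 6 stood apart on the first principal component (29.0% of the variance) and Saline replicate 3 on the second (18.4%), and results below are given with and without them where they matter. Markers of sensory neurons were high in all libraries, with a summed level of 12 genes between 2443 and 3703 FPKM. Skeletal muscle and fat markers were uneven. The summed level of 12 muscle genes was 53.3, 238 and 7.18 FPKM in the saline libraries, 2.86 to 13.4 on CFA3D, and 4.48, 2.43 and 105 on CFA6D, with no gene of the list at 0 in any library. The 7 adipocyte genes tested summed to 151 FPKM in Saline replicate 2 and to 6.03 to 12.1 in the other libraries, and Adipoq, which defines fat cells, was listed at 0 in 4 of these. Against saline, 3 muscle and 2 adipocyte genes passed as lower on CFA3D and 1 muscle gene on CFA6D. The part of these tissues in the results below was not tested.

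Levels of the members are compared in FPKM, which is already scaled to transcript length. Hspa8, the constitutive HSP70 of the cytosol, was the highest at 435 ± 46.8 FPKM (mean ± SD, n = 3) in saline, above 99.8% of the 16110 genes tested. Hsp90aa1, the inducible cytosolic HSP90, followed at 195 ± 7.87 FPKM, then Hspb1 at 87.4 ± 7.38 and Hspa5 at 73.3 ± 9.33. The stress-inducible Hspa1a at 4.22 ± 0.455 FPKM and Hspa1b at 5.67 ± 1.16 FPKM were the lowest, near the middle of all tested genes (above 44.5% and 52.6% of them). In saline the libraries of neighbours in this order did not overlap, except for Hspb1 and Hspa5. On CFA3D the neighbours Hspd1 and Hspe1 overlapped, as did Hspa1b and Hspa1a, and the last pair also overlapped on CFA6D. The order of the 10 means was the same in all 3 groups.

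**Figure D1:**
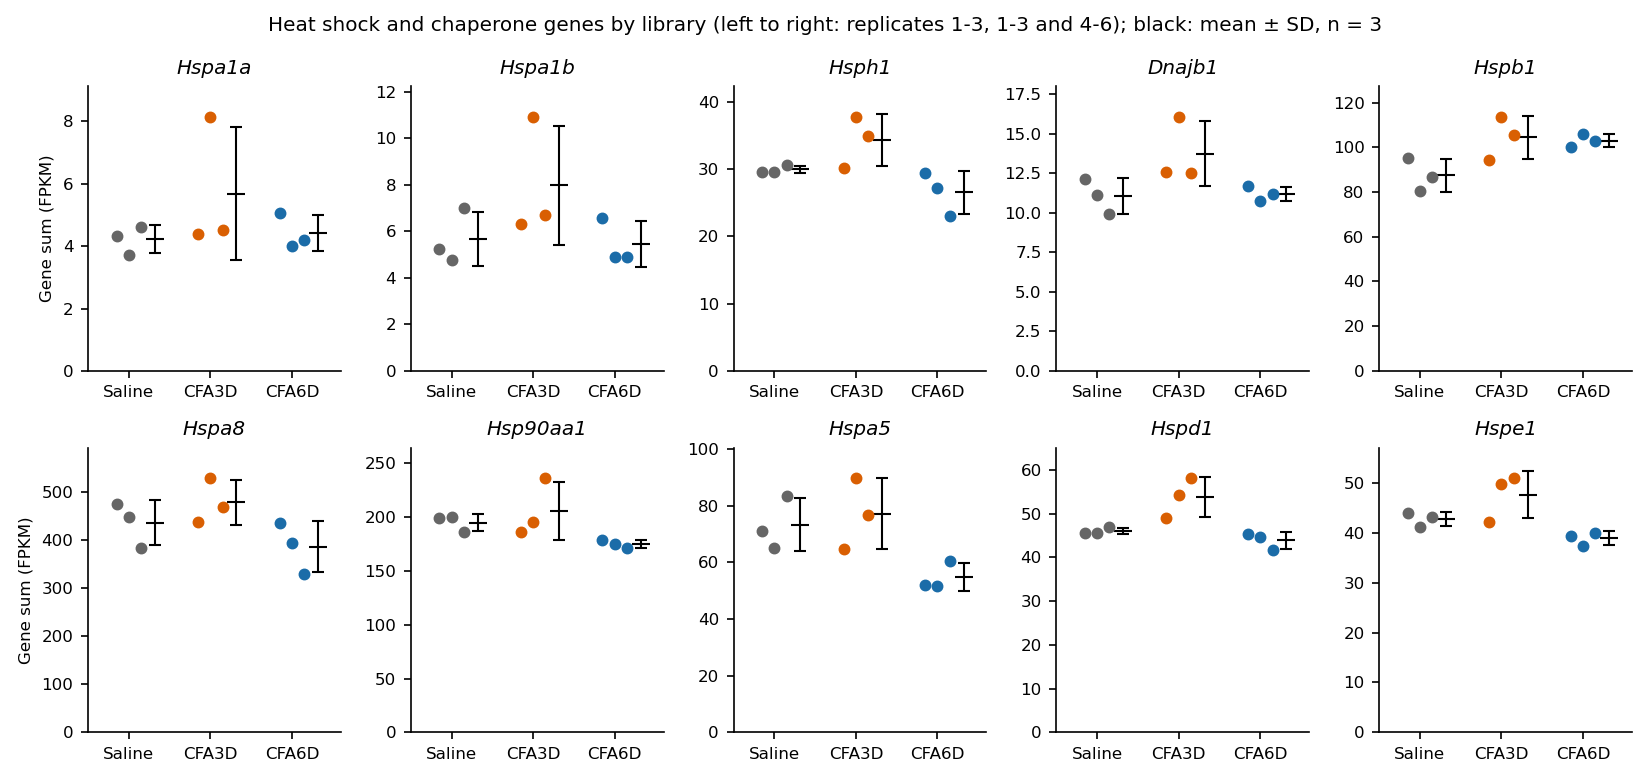
Gene sums in FPKM (vertical axis, from 0) of the 10 members in each library of the 3 groups (horizontal axis), with the mean ± SD of each group in black. CFA3D replicate 2 was the highest library for 7 members and CFA3D replicate 3 for the other 3, and Hspa5 lay lower in all CFA6D libraries (51.8 to 60.4 FPKM) than in any other.

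The first comparison asked which members differed from saline on day 3. All 10 had a higher mean on CFA3D, and Dnajb1, Hspb1 and Hspd1 rose. A gene passed where its unadjusted p in limma, fitted to log2(FPKM + 0.1), was under 0.05. That is 3 of 10 members, all higher, where 4.45% of all tested genes passed, 3.64% as higher and 0.807% as lower. No member passed with a log2 difference of at least 1 in size, as 0.341% of all genes did. The median log2 difference of the members was 0.21 and that of all genes 0.055, and 64.6% of all genes had a positive difference. On CFA3D all 12 sensory neuron markers were also positive, with a median log2 difference of 0.20 and 3 passing, as were all 7 endothelial markers, with a median of 0.15 and none passing, and the part of these cells in the members' differences was not tested. After Benjamini-Hochberg adjustment over all genes no member passed (adjusted p = 0.9966 in limma for each member), nor did any other gene. At unadjusted p under 0.05 limma called 717 genes. A permutation of 3 libraries against 3 cannot give an exact two-sided p below 0.1, so none is given. In bulk tissue, more or fewer cells that hold a transcript and more or less of it per cell cannot be told apart.

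Dnajb1, the J-domain cochaperone that serves inducible HSP70, was at 12.1, 11.1 and 9.91 FPKM in Saline replicates 1 to 3 and at 12.6, 16.1 and 12.5 in CFA3D replicates 1 to 3. The groups did not overlap, and CFA3D replicate 2 stood above the other CFA3D libraries. The log2 difference was 0.31 ± 0.12 (SE), an increase of 23.6%. Hspd1, the HSP60 chaperonin of mitochondria, was at 45.7, 45.7 and 46.9 FPKM in saline and at 49.1, 54.3 and 58.2 FPKM on CFA3D. Its groups did not overlap either, and the saline libraries lay close together. It rose by 0.22 ± 0.079 on the log2 scale (16.5%). Dnajb1 and Hspd1 were the only members whose saline and CFA3D libraries did not overlap, 2 of 10 and both higher, where 9.13% of all genes were so separated, 7.01% higher and 2.12% lower.

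Hspb1, a small heat shock protein that holds unfolded proteins and protects actin filaments, was at 95.1, 80.4 and 86.7 FPKM in saline and at 94.4, 114 and 105 FPKM on CFA3D. CFA3D replicate 1 lay within the saline range, just under Saline replicate 1. The log2 difference was 0.26 ± 0.094, an increase of 19.5%. Without CFA3D replicate 2 none of the 10 members passed in limma, and the log2 differences were 0.19 for Dnajb1, 0.19 for Hspb1 and 0.21 for Hspd1. Without CFA3D replicate 1, 6 members passed, the additional ones being Hspa1b, Hsph1 and Hspe1. Only 1 member passed without Saline replicate 2 (Hspd1), and only 1 without CFA3D replicate 3 (Dnajb1). Without Saline replicate 3, Hspa1b passed and Dnajb1 did not. Under quantile normalization Dnajb1 alone remained among the calls, and in that scaling 58.1% of all calls were higher against 81.9% in the FPKM as deposited.

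The inducible HSP70 genes Hspa1a and Hspa1b lie close together on chromosome 17, at 34969190 to 34972156 and at 34956436 to 34959238 (GRCm38, minus strand), each as 1 transcript of 1 exon. Hspa1a was at 4.33, 3.72 and 4.61 FPKM in saline, at 4.39, 8.15 and 4.51 on CFA3D and at 5.07, 4.02 and 4.19 on CFA6D. Hspa1b was at 5.25, 4.78 and 6.98 FPKM in saline, at 6.32, 10.9 and 6.69 on CFA3D and at 6.58, 4.91 and 4.88 on CFA6D. Both were far higher in CFA3D replicate 2 than in any other library, and the other libraries of the 3 groups overlapped. Neither passed on CFA3D, with log2 differences of 0.37 ± 0.23 and 0.46 ± 0.23. The pair share 1918 of 1929 bases of coding sequence (99.4%) and 296 of 300 bases of promoter. Over the whole transcript they share 2560 of 3035 aligned bases (84.3%). How the authors divided reads between the copies is not given in the sources used here. Their separate levels are therefore uncertain. The sum of both was 8.50 to 11.7 FPKM in 8 libraries and 19.1 in CFA3D replicate 2, and the ratio of Hspa1b to Hspa1a stayed between 1.17 and 1.51.

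**Figure D2:**
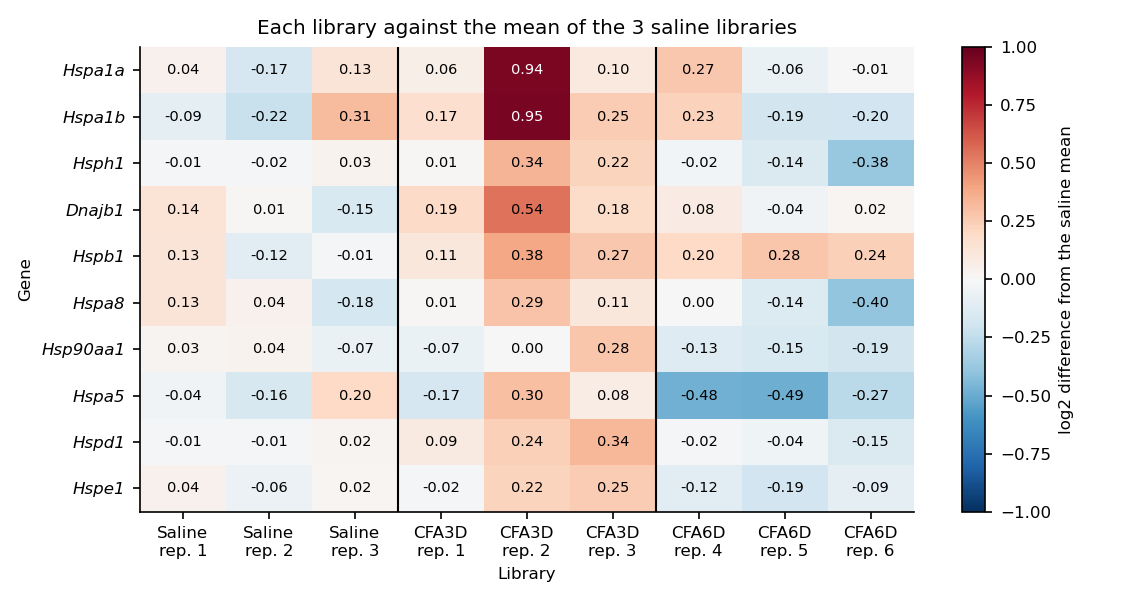
Log2 difference of each library (columns) from the mean of the 3 saline libraries for each member (rows), on a colour scale from -1 to 1 with the value in each cell. The column of CFA3D replicate 2 holds the highest values, 0.94 for Hspa1a and 0.95 for Hspa1b, CFA3D replicate 1 stays near 0 for most members, and Hspa5 is negative in all 3 CFA6D libraries.

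The second comparison asked the same of day 6. Hspa5 fell and Hspb1 rose, and these were the 2 members of 10 that passed, where 11.1% of all genes passed, 8.21% as higher and 2.85% as lower. The 1 higher call among the 10 members is near the share of all genes. With a log2 difference of at least 1 in size 0.596% of all genes passed, and no member. The members' median log2 difference was -0.10 against 0.026 for all genes, and 7 of 10 were lower. No member passed the adjustment (lowest adjusted p = 0.2934 in limma, for Hspa5), and no gene did, with 1782 genes at an unadjusted p under 0.05 in limma. The libraries of 6 members did not overlap with saline, 5 of them lower and 1 higher, and 16.2% of all genes were so separated, 5.49% lower and 10.7% higher. This comparison shares its saline libraries with that of CFA3D, so the results of the 2 are not independent.

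Hspa5, also called BiP or GRP78, is the HSP70 of the endoplasmic reticulum and holds the sensors of the unfolded protein response inactive. It was at 71.1, 65.3 and 83.5 FPKM in saline and at 52.1, 51.8 and 60.4 FPKM in CFA6D replicates 4 to 6. Each CFA6D library was lower than each saline library, and Saline replicate 3 was the highest of its group. The log2 difference was -0.42 ± 0.13, a change of -25.0%. On CFA3D the libraries were at 64.8, 89.8 and 76.8 FPKM, which covered the saline range (log2 difference of 0.069 ± 0.13). Without Saline replicate 3 Hspa5 did not pass on CFA6D, with a log2 difference of -0.32. Without both libraries that stood apart Hspa5 still passed, as the only member.

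Hspb1 on CFA6D was at 99.9, 106 and 103 FPKM, above all saline libraries and with less spread than on CFA3D. The log2 difference was 0.24 ± 0.094, an increase of 18.0%. This call was lost under 7 of 16 alternatives. Among these were leaving out Saline replicate 2 (log2 difference of 0.18), Saline replicate 3 (0.23), CFA6D replicate 5 (0.22) or CFA6D replicate 6 (0.24), and quantile normalization (0.17). In that scaling 50.2% of all calls on CFA6D were higher, against 74.2% as deposited. Hsph1, Hsp90aa1, Hspd1 and Hspe1 were lower in each CFA6D library than in each saline library without passing, with log2 differences of -0.18, -0.16, -0.071 and -0.14. Under quantile normalization 3 members passed on CFA6D, all lower, Hspa5 (-0.49), Hsph1 (-0.27) and Hspe1 (-0.22). Hspa1a, Hspa1b, Dnajb1 and Hspa8 overlapped between the groups.

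The last comparison set day 6 against day 3 of CFA. All 10 members had a lower mean on CFA6D than on CFA3D, and 5 passed, Hspd1, Hspa5, Hsph1, Hspe1 and Dnajb1, all of them lower. Of all genes 4.34% passed as lower, 3.07% as higher and 7.41% in all. With a log2 difference of at least 1 in size 0.782% of all genes passed, and no member. The members' median log2 difference was -0.30 against -0.021 for all genes. The libraries of 7 members did not overlap between the days, all lower, where 10.1% of all genes were separated in that direction and 6.62% in the other. No member reached an adjusted p under 0.05 (0.6098 to 0.9723 in limma), and neither did any gene, with 1193 genes at an unadjusted p under 0.05 in limma. The CFA3D and CFA6D libraries entered the earlier comparisons too, so these counts are no separate evidence.

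The mitochondrial pair fell together. Hspd1 was at 45.3, 44.7 and 41.6 FPKM on CFA6D, and its log2 difference from CFA3D was -0.29 ± 0.079 (-18.3%). Hspe1, the HSP10 lid of the HSP60 chaperonin, was at 44.0, 41.1 and 43.2 FPKM in saline, at 42.2, 49.8 and 50.9 on CFA3D and at 39.4, 37.3 and 40.0 on CFA6D. No CFA6D library of either gene reached the lowest CFA3D library, and CFA3D replicate 1 was the lowest of its group for both. Hspe1 fell by 0.29 on the log2 scale (SE 0.085). Both passed under each of the 16 alternatives tried for this comparison that kept the cutoff. The ratio of Hspd1 to Hspe1 stayed between 1.04 and 1.20 in all libraries. Of all pairs of members they were the most alike across the 9 libraries, with a root mean square difference of 0.067 between their centred log2 values.

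Hsph1, the HSP110 that exchanges nucleotide on HSP70, was at 29.6, 29.6 and 30.6 FPKM in saline, at 30.2, 37.8 and 35.0 on CFA3D and at 29.4, 27.1 and 23.0 on CFA6D. The CFA3D and CFA6D libraries did not overlap, though the nearest of them, at 30.2 and 29.4 FPKM, were close. The log2 difference was -0.37 ± 0.11 (-22.7%). Hspa5 differed most among the called members, with a log2 difference of -0.48 ± 0.13 between the days (-28.5%), and passed under the same 16 alternatives. Dnajb1 was at 11.7, 10.7 and 11.2 FPKM on CFA6D, within the saline range and under all CFA3D libraries. It fell by 0.28 on the log2 scale (SE 0.12), and did not pass without CFA3D replicate 2 (log2 difference of -0.17), CFA6D replicate 5 (-0.26) or CFA6D replicate 6 (-0.28), or without the trend of variance on the mean in limma.

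The most abundant cytosolic chaperones and the inducible HSP70 genes did not pass between the days, but 3 of these 4 genes lay just over the cutoff. The unadjusted p in limma was 0.05131 for Hspa8, 0.05144 for Hsp90aa1 and 0.05171 for Hspa1b, against 0.2121 for Hspa1a. Hspa8 passed under 6 of 16 alternatives, and Hsp90aa1 and Hspa1b under 3 each. Hspa8 was at 475, 447 and 384 FPKM in saline, at 437, 529 and 468 on CFA3D and at 434, 394 and 330 on CFA6D. CFA6D replicate 6 was the lowest library and CFA3D replicate 2 the highest, and the nearest libraries of the days, at 437 and 434 FPKM, hardly differed. Its log2 difference between the days was -0.31 ± 0.14. Hsp90aa1 was at 199, 200.1 and 186 FPKM in saline, at 186, 195 and 236 on CFA3D and at 178, 175 and 171 on CFA6D. Only CFA3D replicate 3 lay clearly above saline, and the CFA6D libraries lay below all others. The log2 difference between the days was -0.23 ± 0.10. Hspa1b gave -0.51 ± 0.23 and Hspa1a -0.30 ± 0.23, and without CFA3D replicate 2 these became -0.26 and -0.015. Hspa1a was at -0.45 without CFA3D replicate 1, and Hspa1b passed without CFA3D replicate 1, CFA3D replicate 3 or CFA6D replicate 4 (-0.65, -0.61 and -0.65). Hspb1 was at -0.018 ± 0.094 between the days. The number of members that passed was 8 without CFA3D replicate 1 and 4 to 7 without any other single library.

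**Figure D3:**
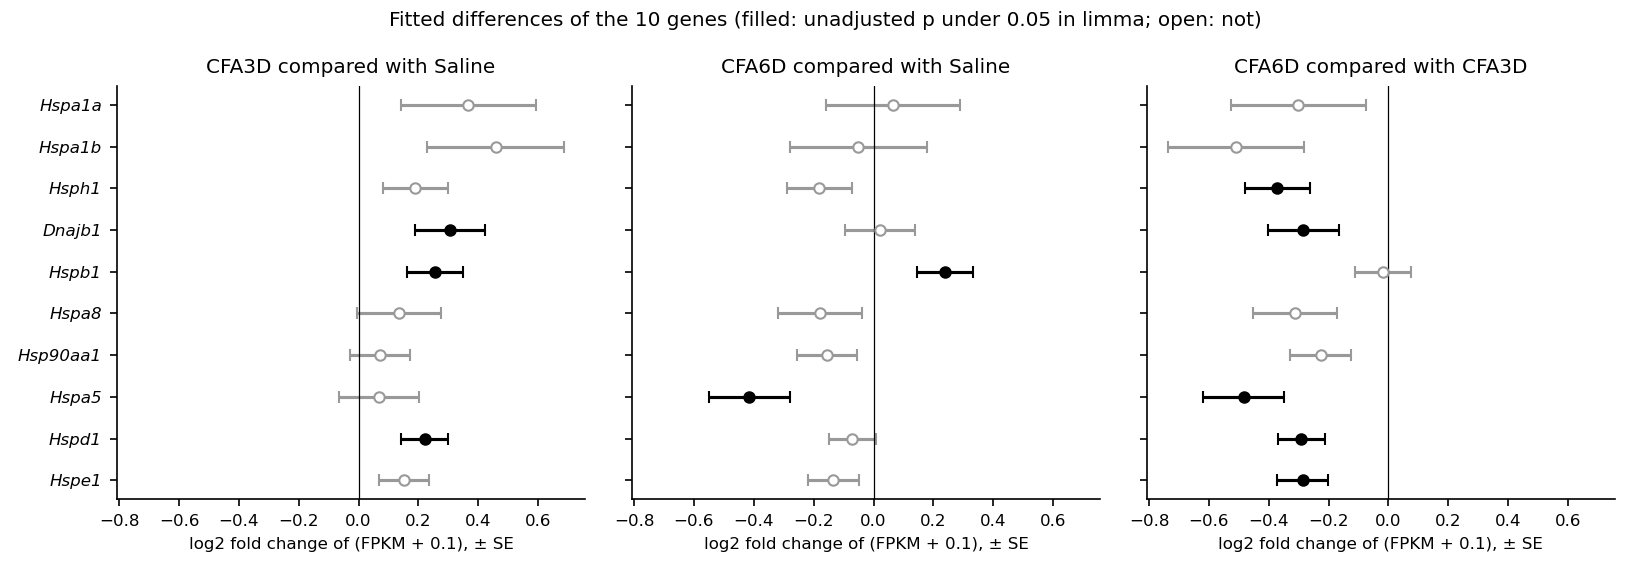
Fitted log2 differences with SE (horizontal axis, on the log2(FPKM + 0.1) scale) of the 10 members (vertical axis) in the 3 comparisons, filled where unadjusted p was under 0.05. All 10 points lie right of 0 in the left panel and left of 0 in the right one, with 3, 2 and 5 filled points, and each pair of panels shares a group.

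Read by library, the pattern was uneven within groups. The median log2 difference of the 10 members from the saline mean was 0.32 in CFA3D replicate 2 and 0.24 in CFA3D replicate 3, but 0.036 in CFA3D replicate 1, and -0.037 to 0.035 in the saline libraries. CFA6D replicates 4, 5 and 6 had medians of -0.010, -0.14 and -0.17. The summed level of the members was 882 to 981 FPKM in saline, 927 to 1105 on CFA3D and 789 to 902 on CFA6D. CFA6D replicate 6 was the lowest library for 4 members, Saline replicate 2 for 3, CFA6D replicate 5 for 2 and Saline replicate 3 for 1. Without CFA6D replicate 6 and Saline replicate 3, an alternative chosen after seeing the data, 2 members passed on CFA3D, 1 on CFA6D and 4 between the days. On CFA3D these were Hspd1 and Hspa1b (log2 difference of 0.62), while Dnajb1 (0.23) and Hspb1 (0.25) no longer passed. On CFA6D it was Hspa5, and between the days Dnajb1 was lost.

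The gene sums of Hsph1 and Hspa8 hid differences in the values assigned to their transcripts in CFA6D replicate 6. How reads shared by overlapping transcripts were divided is not given in the sources used here. A difference in the RNA and one in the assignment of reads therefore cannot be told apart. The main Hsph1 transcript ENSMUST00000074846, of 17 exons and 3240 bases, was at 18.9 to 27.6 FPKM in 8 libraries and was listed at 0 in CFA6D replicate 6. In that library ENSMUST00000202361, of 18 exons and 3802 bases, was at 18.7 FPKM, against 1.49 to 2.98 FPKM in the others. The remaining 8 libraries thus gave 69.6% to 78.8% of the gene sum to the first transcript and CFA6D replicate 6 gave 81.3% to the second. With the main transcript in place of the gene sum, the log2 difference of Hsph1 between the days became -2.89 and did not pass. FPKM is scaled to transcript length, so the Hsph1 gene sum of that library also depends on this assignment. The part of the assignment in the gene-sum difference between the days was not tested. The 4 Hspa8 transcripts annotated as retained intron summed to 98.7 to 138 FPKM, 20.6% to 29.1% of the gene sum, in 8 libraries and to 49.2 FPKM, 14.9%, in CFA6D replicate 6. Over the whole mRNA table the share of retained intron transcripts was 11.03% to 12.1%, with 11.2% in that library.

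**Figure D4:**
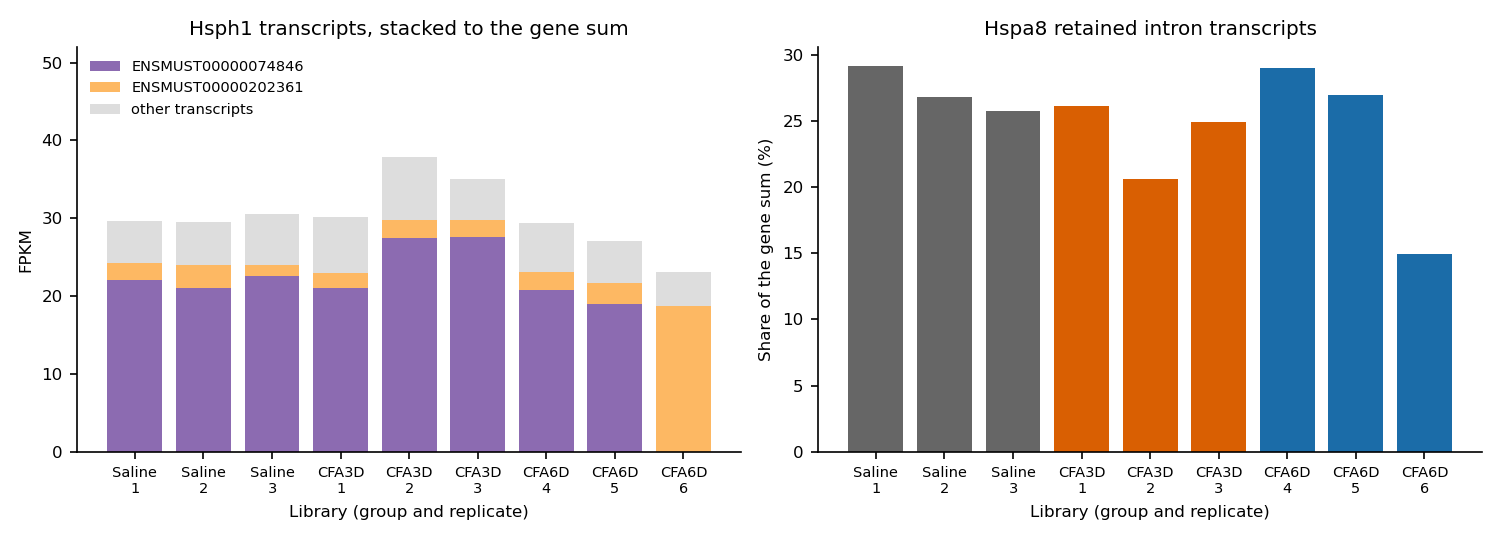
Left, FPKM (vertical axis) of the Hsph1 transcripts in each library (horizontal axis), stacked to the gene sum, and right, the share of the Hspa8 gene sum in retained intron transcripts, in percent. CFA6D replicate 6 differs from the other 8 libraries in both, with ENSMUST00000202361 in place of ENSMUST00000074846 and a share of 14.9%.

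Other members had a second transcript of weight in all groups. Hspb1 gave 73.2% to 83.9% to ENSMUST00000005077 and the rest mostly to ENSMUST00000111155. Hspd1 gave 76.2% to 88.8% to ENSMUST00000027123, and ENSMUST00000127861, which starts upstream of it, held 9.81% of the gene sum in Saline replicate 2 and 17.1% to 23.5% elsewhere. Hsp90aa1 gave 77.1% to 83.8% to ENSMUST00000094361, Hspa5 74.9% to 78.4% to ENSMUST00000100171, and Dnajb1 and Hspe1 over 94% to 1 transcript each. The genes lie on chromosomes 5 (Hsph1, 149614287 to 149636376, and Hspb1, 135887919 to 135889563), 8 (Dnajb1, 83608193 to 83612653), 9 (Hspa8, 40800984 to 40810087), 12 (Hsp90aa1, 110690605 to 110702728), 2 (Hspa5, 34771970 to 34777547) and 1 (Hspd1, 55077835 to 55088243, and Hspe1, 55088132 to 55091307) of GRCm38.

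Of the factors that act on heat shock elements, Hsf1, the main activator, was at 13.4, 12.1 and 10.2 FPKM in saline, at 12.8, 14.1 and 10.8 on CFA3D and at 13.2, 15.2 and 13.3 on CFA6D. All 3 groups overlapped, and its log2 differences were 0.075 on CFA3D, 0.23 on CFA6D and 0.15 between the days, none of which passed. Hsf2, Hsf4 and Hsf5 passed in no comparison, with log2 differences between the days of -0.066, -0.12 and 0.10. Hsbp1, a small protein that binds Hsf1 trimers, was at 54.2, 61.1 and 57.9 FPKM on CFA3D and at 48.9, 49.9 and 45.8 FPKM on CFA6D. It fell by 0.26 on the log2 scale between the days, and it was the only 1 of these 5 genes to pass.

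Other chaperones reported to be targets of Hsf1 went in both directions. Of 20 such genes 5 passed as lower between the days and 1 as higher, where 4.34% and 3.07% of all genes did. Their median log2 difference was -0.15. Serpinh1, the collagen chaperone HSP47, fell by 0.74, and Ahsa1, which activates the HSP90 ATPase, fell by 0.24. Serpinh1 was also uneven within saline, at 36.9, 16.4 and 25.7 FPKM. Bag3, a cochaperone that links HSP70 to the small heat shock proteins and to autophagy, rose instead. It was at 27.4, 28.5 and 30.5 FPKM in saline, at 29.2, 33.3 and 34.2 on CFA3D and at 48.9, 39.1 and 44.7 on CFA6D, where all libraries lay above all others. Bag3 rose by 0.61 ± 0.10 over saline (adjusted p = 0.08637 in limma) and by 0.45 ± 0.10 over CFA3D. Hspb8, the small heat shock protein that pairs with Bag3, was at 62.4, 53.1 and 48.3 FPKM in saline, at 62.0 to 67.8 on CFA3D and at 63.4 to 65.1 on CFA6D. It rose by 0.26 on CFA3D and by 0.25 on CFA6D. Against saline, these 20 genes held 1 higher call on CFA3D (Hspb8), and 3 higher and 2 lower calls on CFA6D. Of all genes 3.64% were called higher on CFA3D, and 8.21% higher and 2.85% lower on CFA6D.

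The relatives of the members were counted by family, where 4.45% of all genes passed on CFA3D, 11.1% on CFA6D and 7.41% between the days. The lists overlap, so their counts are not separate. Ahsa1, Hspb8, Cryab, Bag3 and Dnaja1 are also among the Hsf1 targets above, and Hsp90b1 is also among the endoplasmic reticulum stress genes below. Of 10 other HSP70 and HSP110 genes only Hspa2 passed, higher on CFA6D than in saline (log2 difference of 0.32) and than on CFA3D (0.30). Of 14 other HSP90 genes and cochaperones 3 were lower between the days, Ahsa1, the endoplasmic reticulum paralog Hsp90b1 (-0.24) and Ppid (-0.22), and Stub1, a ubiquitin ligase of chaperone clients, was higher on CFA6D than in saline (0.18). Of 7 other small heat shock proteins tested, Hspb8 was higher and Hspb7 lower on CFA3D, and Cryab was lower on CFA6D than in saline (-0.27) and than on CFA3D (-0.26). Hspb7, a muscle gene, was at 0.271, 0.857 and 0.213 FPKM in saline. It was at 0.105, 0.0919 and 0.185 on CFA3D and at 0.193, 0.371 and 0.322 on CFA6D. Saline replicate 2, its highest library, had the most muscle and fat marker signal. CFA6D replicate 5, at 0.371 FPKM, had the lowest muscle marker sum (2.43 FPKM). The part of muscle in the Hspb7 call was not tested. Of 16 other DnaJ genes of classes A and B, Dnajb13 was higher on CFA6D than in saline and on CFA3D at levels of 0.250 to 1.71 FPKM, and Dnaja1 was lower between the days (-0.19). Of 12 exchange factors and regulators of HSP70, Bag1 was higher on CFA3D (0.17), and Bag3 and Bag6 (0.27) were higher on CFA6D than in saline.

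Genes of the endoplasmic reticulum stress response include the partners of Hspa5. Of 22 such genes none passed on CFA3D, and 3 were lower and 1 higher on CFA6D against saline, where 2.85% and 8.21% of all genes were. Between the days 7 were lower and none higher, where 4.34% and 3.07% of all genes were, with a median log2 difference of -0.17 in the list. The other genes of this list did not pass. Pdia4, a disulfide isomerase, was at 23.5, 22.8 and 25.6 FPKM in saline, at 22.03, 26.6 and 24.5 on CFA3D and at 17.9, 19.2 and 19.6 on CFA6D. Its CFA6D libraries lay below all others, by -0.34 ± 0.088 from saline and -0.36 ± 0.088 from CFA3D. Manf, a secreted factor of stressed cells, and Creld2 fell by 0.34 and 0.53 from saline and by 0.33 and 0.41 from CFA3D. Pdia6 fell by 0.28 between the days. Ddit3, the proapoptotic factor CHOP, did not pass in any comparison and was at 17.2 to 20.6 FPKM in all libraries, and Atf4 did not pass either. These 2 genes were singled out after their values were seen.

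The cytosolic chaperonin and its partner prefoldin, which fold actin and tubulin, had 5 of 14 genes lower between the days and none higher. Of all genes 4.34% passed as lower there. Cct5 fell by 0.26, Cct6a by 0.46 and Cct2 by 0.19. Pfdn5, a prefoldin subunit, was at 62.6 to 65.6 FPKM in saline, 57.0 to 59.9 on CFA3D and 52.1 to 54.1 on CFA6D, with no overlap between any groups. It fell by 0.28 from saline to CFA6D and by 0.15 between the days. On CFA3D only Pfdn4 of these genes passed, as higher (0.26). Of 10 other mitochondrial chaperones and proteases, only Clpp, a subunit of a matrix protease, passed, lower on CFA6D than in saline (-0.23) and than on CFA3D (-0.22). Hspa9, the mitochondrial HSP70, named after its values were seen, was among the 9 that did not pass. In these lists 0 genes reached an adjusted p under 0.05 in limma.

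**Figure D5:**
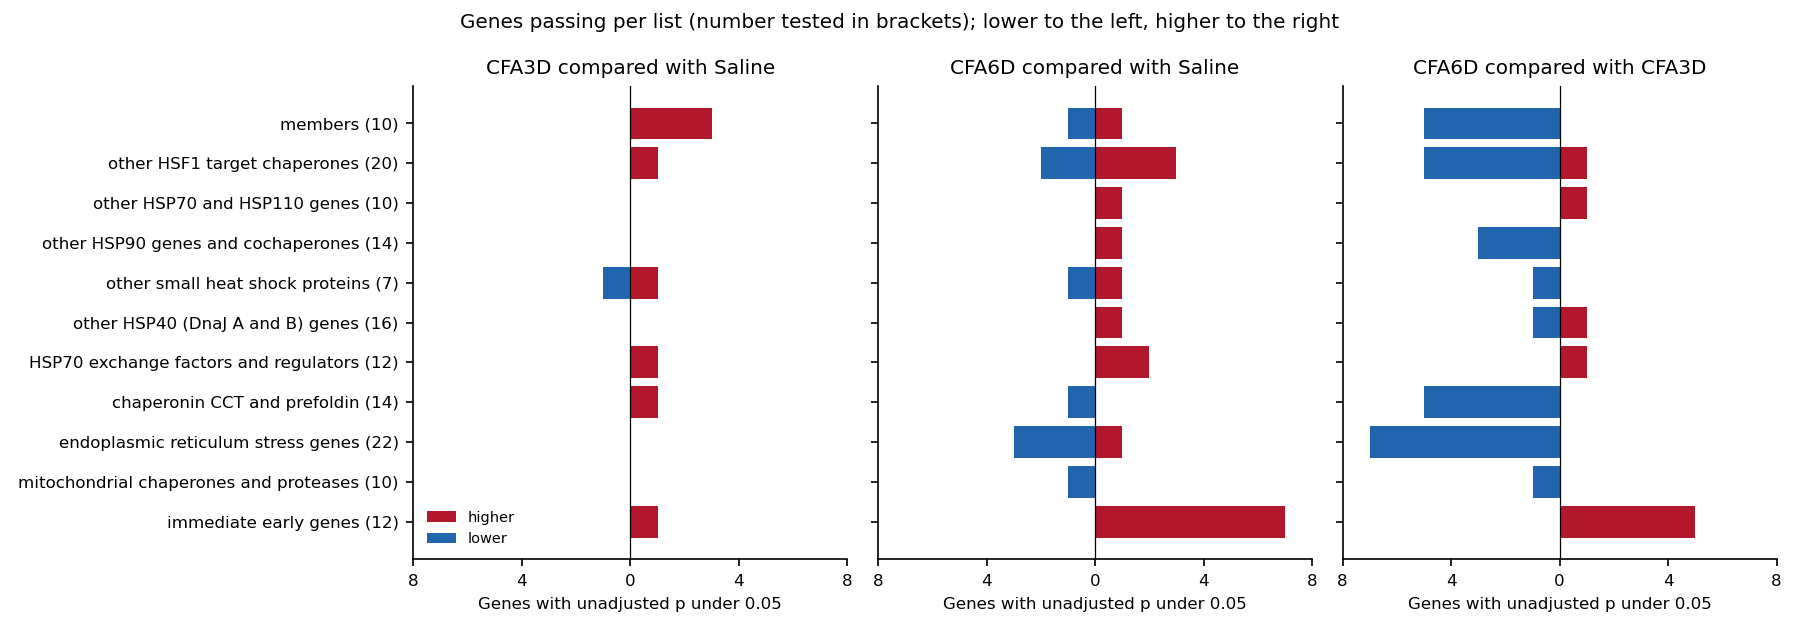
Number of genes with unadjusted p under 0.05 (horizontal axis, lower to the left, higher to the right) in each list (vertical axis, with the number tested) for the 3 comparisons. Some genes are in several lists. The members, the endoplasmic reticulum stress genes and the chaperonin list have 5, 7 and 5 lower calls and no higher call in the right panel, whereas immediate early genes have 7 and 5 higher calls in the middle and right panels.

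Immediate early genes are switched on by neurons and other cells within minutes of a stimulus. Of 12 such genes 1 passed as higher on CFA3D (Jun), 7 on CFA6D and 5 between the days, and none passed as lower. Of all genes 3.64%, 8.21% and 3.07% passed as higher in these comparisons. This list too was written with earlier results of these data known. Jun was at 18.7 to 19.2 FPKM in saline, 21.7 to 24.8 on CFA3D and 24.8 to 27.3 on CFA6D, with the highest CFA3D and the lowest CFA6D library both at 24.8 FPKM, and Fos, at 1.69 to 3.42 FPKM over all libraries, did not pass. Of 12 sensory neuron markers 3 were higher on CFA3D and 6 on CFA6D than in saline, and 3 were higher and 1 lower between the days. Of 7 macrophage markers 2 were lower between the days (C1qb and C1qc) and 1 was lower on CFA6D than in saline (C1qc), with a summed level of 88.0 to 107.5 FPKM in saline, 74.3 to 133 on CFA3D and 50.9 to 82.7 on CFA6D, and none at 0. CFA3D replicate 2 had both the highest macrophage sum and the highest endothelial sum (69.2 FPKM, against 37.8 to 49.9 in the others). Of 7 satellite glia markers 2 were lower between the days and 1 on CFA6D against saline, and their summed levels overlapped between all groups. The part of these cell types in the members' differences was not tested.

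Across the 13185 genes with a mean of at least 1 FPKM, the genes whose centred log2 values over the 9 libraries were closest to a member were found by the root mean square difference. Hspa5 was closest to Tst (0.089) and to Pdia4 (0.094), against a spread of 0.26 for Hspa5 itself on the same measure. Hspa1a was closest to Tmem253 (0.099) and Hspa1b (0.12), and Hspa1b to Hspa1a and Anp32e (0.15). Hsp90aa1 was closest to Cox7c (0.025) and Otud6b (0.042), Hspd1 to Fundc1 (0.049) and 4931414P19Rik (0.053), and Hspe1 to Tfb1m (0.042) and Tomm40l (0.045). Hsph1 was closest to Thg1l and Dph5, Dnajb1 to Cybc1 and Mak16, Hspb1 to Pitpnc1 and Mapre1, and Hspa8 to Arhgap12 and Lama4, at 0.044 to 0.078. Except for the HSP70 pair, no member was among the 2 closest genes of another. These distances are descriptions over 9 libraries that share their groups and depth.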

How the data were processed

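The study sequenced 9 TG libraries, 3 per group. For each transcript the authors deposited an FPKM value per library, in 1 table for mRNA and others for noncoding RNA, and 0 sample columns were left unused. Per the study's methods, reads were trimmed with Trimmomatic, mapped to GRCm38 and quantified in CLC Genomics Workbench, whereas the submitters' processing notes name Bowtie 0.12.2 and mm8. The methods describe rRNA-depleted, stranded libraries and the labels a TruSeq RNA kit. The noncoding tables were used only for RNAs inside members. Neither source says how reads shared by copies were divided, and FPKM gives relative levels, so a rise of abundant transcripts lowers all others.

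GENCODE release 21 (GRCm38) gave the gene of 101539 of the 102122 mRNA transcripts, and FPKM was summed per gene. Genes whose sums averaged 0.1 FPKM or more entered limma 3.58.1 (R 4.3.3) as log2(FPKM + 0.1). All 9 libraries were fitted together by group, and the empirical Bayes step used a trend in the mean. A gene passed at unadjusted p under 0.05, the study's cutoff, and Benjamini-Hochberg adjustment ran over all gene sums. The fit was tested on simulated data. Read pairs were estimated from FPKM steps, so depth is approximate. Promoter letters and distances were computed in Python 3.11.15 (numpy 2.4.6, pandas 2.3.3, Biopython 1.88), and figures in matplotlib 3.10.9.

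Named genes were the members, their transcripts of at least 10% of the gene sum in a library, up to 4 genes per list with the smallest p among those passing, all heat shock factors and immediate early genes as needed, and the 2 genes most alike to each member. The members, lists and rules were chosen with earlier results of these data known. Alternatives were pseudocounts of 0.01 and 1, a mean of at least 1 FPKM, no filter, quantile normalization, rescaling of the mRNA table, fits of only the groups compared, the transcript with the highest mean, a log2 fold change of at least 1, adjusted p, no trend, leaving out each library, and a replicate block for CFA3D. Leaving out both libraries that stood apart was added after seeing the data.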

Additional observations from a re-analysis of the deposited data

Results flagged for a closer look

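The log2 differences from saline on the 2 days differed for 5 members, by the comparison of CFA6D with CFA3D in limma, in which the shared saline libraries cancel. No saline library was labelled day 6, so a change in the effect of CFA and other changes with time cannot be told apart. The difference was -0.37 for Hsph1, -0.28 for Dnajb1, -0.48 for Hspa5, -0.29 for Hspd1 and -0.29 for Hspe1, and each passed at the unadjusted cutoff. The means of all 5 lay above saline on CFA3D, and those of Hspa5, Hsph1, Hspd1 and Hspe1 lay below saline on CFA6D, where the mean of Dnajb1 was close to that of saline (log2 difference of 0.022). Benjamini-Hochberg adjustment in limma left none of them below 0.05, and 7.41% of all genes passed at the unadjusted cutoff. No group held more than 3 libraries, so no test for outliers within a group was run, and each library was left out in turn instead.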

How the results depend on the processing

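Depth was not varied. Hspa1a and Hspa1b had the fewest read pairs, about 331 to 955 and 402 to 1210, and whether depth limits their results was not tested. The count of members that passed on CFA3D was 3, and it became 1 under quantile normalization and 1 with the transcript of the highest mean. On CFA6D the count of 2 became 1 with that transcript, and 1 without the 2 libraries that stood apart, and under quantile normalization it was 3, all lower. Requiring a log2 difference of 1 or more in size, or an adjusted p under 0.05, left 0 members in each of the 3 comparisons. Leaving out each library in turn gave 0 to 6 members on CFA3D, 0 to 2 on CFA6D and 4 to 8 between the days. Between the days 7 members passed with a pseudocount of 0.01 and 7 with a mean of at least 1 FPKM, since Hspa8 and Hsp90aa1 crossed the cutoff. The cause of the other shifts was not tested.

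With the replicate number as a block, 0 members passed on CFA3D. The study's methods describe no pairing of libraries by number, and CFA6D carries other numbers. The deviations of same-numbered saline and CFA3D libraries correlated at 0.088, -0.078 and 0.030. Those of differently numbered libraries correlated at -0.11 to 0.059. With 3 libraries a group, these values cannot decide whether same-numbered libraries shared a batch.

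Directions were reversed only for differences that had not passed. On CFA3D, Hsp90aa1 was at -0.00046 under quantile normalization, and leaving out single libraries gave it -0.032 to 0.14 and Hspa5 -0.047 to 0.19. On CFA6D, leaving out single libraries gave -0.035 to 0.13 for Hspa1a, -0.19 to 0.11 for Hspa1b and -0.054 to 0.092 for Dnajb1. There Dnajb1 was at -0.039 under quantile normalization, and without both libraries that stood apart Hspa1b was at 0.18 and Dnajb1 at -0.052. Between the days, Hspb1 was at 0.034 with the transcript of the highest mean and -0.089 to 0.045 without single libraries. Rescaling the mRNA table moved the share of higher calls among all genes from 81.9% to 66.6% on CFA3D, from 74.2% to 63.9% on CFA6D and from 41.4% to 47.6% between the days.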

Other observations

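The glucocorticoid receptor is a hormone receptor that HSP90 and HSP70 hold ready for its ligand. Of 8 of its target genes 5 passed as higher than saline on CFA6D, where 8.21% of all genes did. Between the days 4 passed as higher, where 3.07% of all genes did, and none passed between CFA3D and saline. The median log2 difference of CFA6D from saline was 0.79. This list was written with earlier results of these data known, so its counts are no independent evidence. Ddit4, an inhibitor of mTOR signalling, was at 26.3, 24.3 and 16.9 FPKM in saline, at 26.4, 27.2 and 16.4 on CFA3D and at 69.4, 79.1 and 63.0 on CFA6D. All CFA6D libraries lay above all others. Its log2 difference from saline was 1.66 ± 0.22 (adjusted p = 0.07316 in limma), the smallest adjusted p of that comparison. Sgk1 differed by 1.22 ± 0.28 from saline and by 1.22 from CFA3D, and Per1, a clock gene, by 1.11 and 1.18.

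Introns of Hspa8 hold 3 small nucleolar RNAs, which the table of other noncoding RNA lists apart from the host gene. Snord14c was at 1.13 to 5.58 FPKM, Snord14d at 1.11 to 5.16 FPKM and Snord14e at 0.0016 to 3.09 FPKM over the 9 libraries. The levels of all 3 overlapped between the groups, and RNAs this short are poorly caught by these libraries.

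Markers of neutrophils and red cells had 1 of 9 genes higher on CFA6D than in saline and 4 higher between the days, with summed levels of 2236 to 5859 FPKM in saline, 1688 to 3925 on CFA3D and 2307 to 5218 on CFA6D. Of all genes 8.21% and 3.07% passed as higher in these comparisons. The calls were S100a8, and between the days also S100a9, Ngp and Camp. On CFA6D replicates 4, 5 and 6, S100a8 was at 45.0, 40.0 and 901 FPKM, S100a9 at 57.2, 48.2 and 1024, Ngp at 14.7, 14.6 and 334, and Camp at 5.68, 6.63 and 161. In each case replicate 6 stood far above the other libraries. Of 7 Schwann cell myelin markers 1 (Egr2, also an immediate early gene) was higher on CFA6D in both comparisons. Of 7 endothelial markers none passed in limma at an unadjusted p under 0.05.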
